A study of Brassica napus with 9 samples.

Results

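Transcript levels of 6 genes were followed in the leaves of *Brassica napus*, 4 encoding phenylalanine ammonia-lyase and 2 encoding flavonoid 3′-monooxygenase. They are the *PAL1* copies BnaA04g21230D, BnaA05g07370D and BnaC04g08190D, the *PAL2* copy BnaC08g24360D, and the *CYP75B1* copies BnaA10g23330D and BnaC09g47980D. They were taken by identifier from the 104592 genes listed for each library, and all 6 passed the filter for testing, which asked for more than 1 FPKM in 3 or more of the 9 libraries. Each identifier carries the chromosome of the gene, with A and C for the subgenomes that *B. napus* inherited from its 2 parents.

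The leaves came from wild-type seedlings of the genotype Zhongshuang 11, sampled as the third leaf from pots that held several plants. The D + F plants were droughted and received 100 mg/L fullerol, a water-soluble polyhydroxylated fullerene, on their leaves. The D plants were brought to the same drought, 30% of field capacity, and received water on their leaves. Watering at 80% of field capacity was maintained for the CK plants, whose leaves also received water. There was no group with fullerol at full watering. Each group had 3 libraries from biological replicates, numbered 1 to 3, and the sources do not say whether a library held 1 plant or a pool.

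Phenylalanine ammonia-lyase removes ammonia from phenylalanine to give cinnamate and so opens the phenylpropanoid pathway. Cinnamate 4-hydroxylase (*CYP73A5*) takes the next step, and the products feed lignin, chlorogenic acid and the flavonoids. Flavonoid 3′-monooxygenase, a cytochrome P450, works later and adds a hydroxyl group to the B ring of flavonoids, as in the formation of luteolin, quercetin and the cyanidin-type anthocyanins. In leaves these compounds are known as sunscreens and antioxidants.

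The values are FPKM, read pairs scaled to gene length and to the library's total. The digits of the values gave back whole read pairs, and the library totals behind them lay between 21939148 and 26042002. At that depth 3 read pairs on 1 kilobase stood for 0.115 to 0.137 FPKM. Differences were tested with limma on log2(FPKM + 1) over 50626 genes, and a gene is called where the Benjamini-Hochberg adjusted p is under 0.05. In bulk leaf RNA, fewer cells that express a gene and less RNA per cell cannot be told apart. The leaf label could not be checked against marker genes, because the identifiers are not paired with markers in the sources used here.

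All 6 genes were higher in every D + F library than in any D library, as held for 19.8% of all genes tested. In the 3 CK libraries the same 6 genes were scattered widely. Their D + F level lay above all CK libraries for 2 genes, as held for 20.1% of all genes tested. It overlapped the CK range for the other 4. The plot of member levels shows each library.

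**Figure D1:**
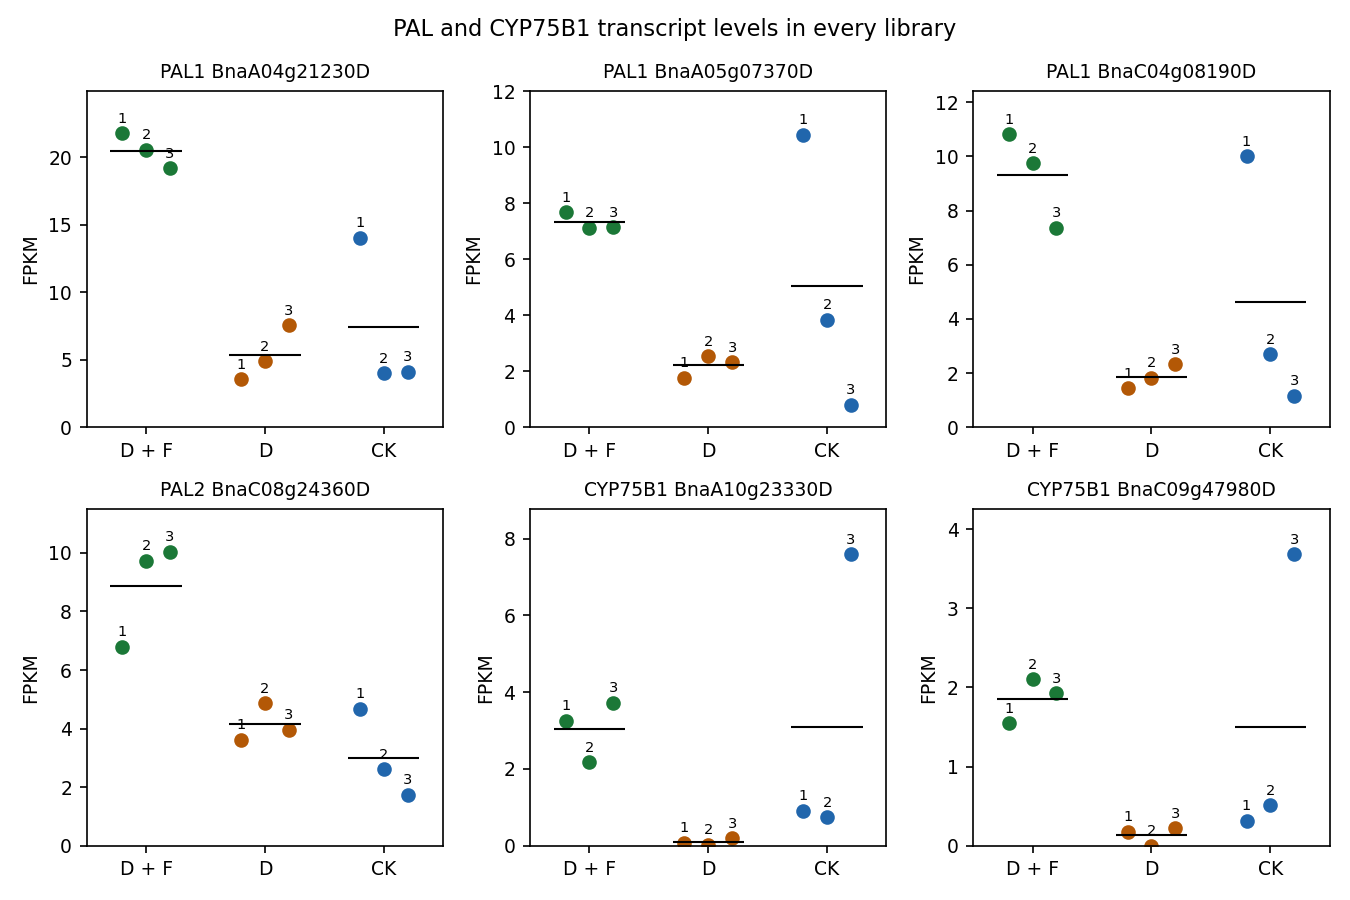
FPKM of the 6 genes (vertical axes, each from 0) in D + F, D and CK leaves; each point is 1 library with its replicate number, and each line is the mean of 3 libraries. The D + F points lie above the D points in all 6 panels, CK 1 is the highest CK library in the 4 *PAL* panels and CK 3 in both *CYP75B1* panels.

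*PAL1* BnaA04g21230D was the most abundant member in D + F leaves. It stood at 21.8, 20.6 and 19.2 FPKM in D + F, at 3.55, 4.88 and 7.55 FPKM in D, and at 14.05, 4.01 and 4.12 FPKM in CK. The D + F libraries were close to each other and above all 6 other libraries, while CK 1 stood far above CK 2 and CK 3. The means were 20.5 ± 1.30 FPKM in D + F, 5.33 ± 2.03 in D and 7.39 ± 5.76 in CK (SD, n = 3 each). The D + F mean was 3.85 times that of D and 2.77 times that of CK. In D + F 1 only 7.83% of all listed genes had a higher FPKM than this copy, against 30.5% in D 1 and 12.3% in CK 1.

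*PAL1* BnaA05g07370D had 7.67, 7.12 and 7.14 FPKM in D + F, 1.77, 2.55 and 2.32 FPKM in D, and 10.45, 3.84 and 0.798 FPKM in CK. The D + F and D groups did not overlap, and the CK libraries reached both above the D + F range and below the D range. The means were 7.31 ± 0.312 FPKM in D + F, 2.21 ± 0.397 in D and 5.03 ± 4.93 in CK (SD, n = 3 each). *PAL1* BnaC04g08190D had 10.8, 9.74 and 7.37 FPKM in D + F, 1.44, 1.82 and 2.32 FPKM in D, and 10, 2.69 and 1.16 FPKM in CK. Here CK 1 lay within the D + F range and CK 3 below the lowest D library. The means were 9.31 ± 1.76 FPKM in D + F, 1.86 ± 0.443 in D and 4.62 ± 4.73 in CK (SD, n = 3 each).

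*PAL2* BnaC08g24360D had 6.79, 9.74 and 10.04 FPKM in D + F, 3.63, 4.86 and 3.97 FPKM in D, and 4.69, 2.60 and 1.74 FPKM in CK. Its D + F libraries lay above all others, and it was the only member whose mean was higher in D than in CK. The means were 8.86 ± 1.79 FPKM in D + F, 4.15 ± 0.640 in D and 3.01 ± 1.51 in CK (SD, n = 3 each). With a ratio of 2.13 between the D + F and D means, *PAL2* had the smallest such ratio of the 6 genes, and with 2.94 between D + F and CK the largest.

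The *CYP75B1* copies were close to the limit of detection in D, and their highest values were in CK 3. BnaA10g23330D had 3.25, 2.17 and 3.72 FPKM in D + F, 0.0825, 0.0283 and 0.195 FPKM in D, and 0.910, 0.742 and 7.60 FPKM in CK. These D values rest on 3, 1 and 7 read pairs, against 114, 87 and 131 read pairs in D + F and 33, 27 and 256 in CK. BnaC09g47980D had 1.55, 2.10 and 1.93 FPKM in D + F, 0.176, 0 and 0.219 FPKM in D, and 0.314, 0.509 and 3.68 FPKM in CK. No read pair fell on it in D 2, which allows a level of up to 0.0605 FPKM at 3 read pairs. The D libraries lay below all D + F and all CK libraries for both copies, and CK 3 lay above every D + F library.

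Summed over its 3 libraries, BnaA10g23330D had 332 read pairs in D + F and 11 in D, a rate ratio of 29.5 with an exact 95% interval of 16.3 to 59.6. BnaC09g47980D had 289 read pairs in D + F and 20 in D, a rate ratio of 14.1 with an interval of 8.96 to 23.4. These intervals cover counting error only. Both copies passed the filter through the 3 D + F libraries and CK 3, no D library being above 1 FPKM, so their entry into the test already rested on groups in which they were higher than in D. Against CK the rate ratios of D + F were 1.01 (0.867 to 1.19) for BnaA10g23330D and 1.29 (1.08 to 1.55) for BnaC09g47980D, and 256 of 316 and 174 of 216 of the CK read pairs came from CK 3.

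Added over the 4 copies followed here, *PAL* reached 47.1, 47.2 and 43.7 FPKM in D + F, 10.4, 14.1 and 16.2 FPKM in D, and 39.2, 13.15 and 7.82 FPKM in CK. These copies are the ones that the study named as raised by fullerol, and their sum may not cover all *PAL* of the leaf. It leaves out BnaA09g33560D, which shares the KEGG entry of *PAL2* and averaged 8.19 FPKM in D + F, 4.65 in D and 4.17 in CK. In the deposited FPKM the D + F sums lay above every other library, CK 1 came next, and CK 3 had the lowest sum of all. With median-of-ratios scaling of the libraries, D + F 3 (38.6 FPKM) fell below CK 1 (40.0 FPKM). The mean sum was 46.0 ± 1.95 FPKM in D + F, 13.6 ± 2.92 in D and 20.05 ± 16.8 in CK (SD, n = 3 each). *CYP75B1* summed to 4.80, 4.28 and 5.65 FPKM in D + F, 0.259, 0.0283 and 0.414 FPKM in D, and 1.22, 1.25 and 11.3 FPKM in CK. Here CK 3 was the highest library, the D + F libraries came next, and CK 1 and CK 2 lay between D + F and D. The mean sum was 4.91 ± 0.691 FPKM in D + F, 0.234 ± 0.194 in D and 4.59 ± 5.80 in CK (SD, n = 3 each).

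**Figure D2:**
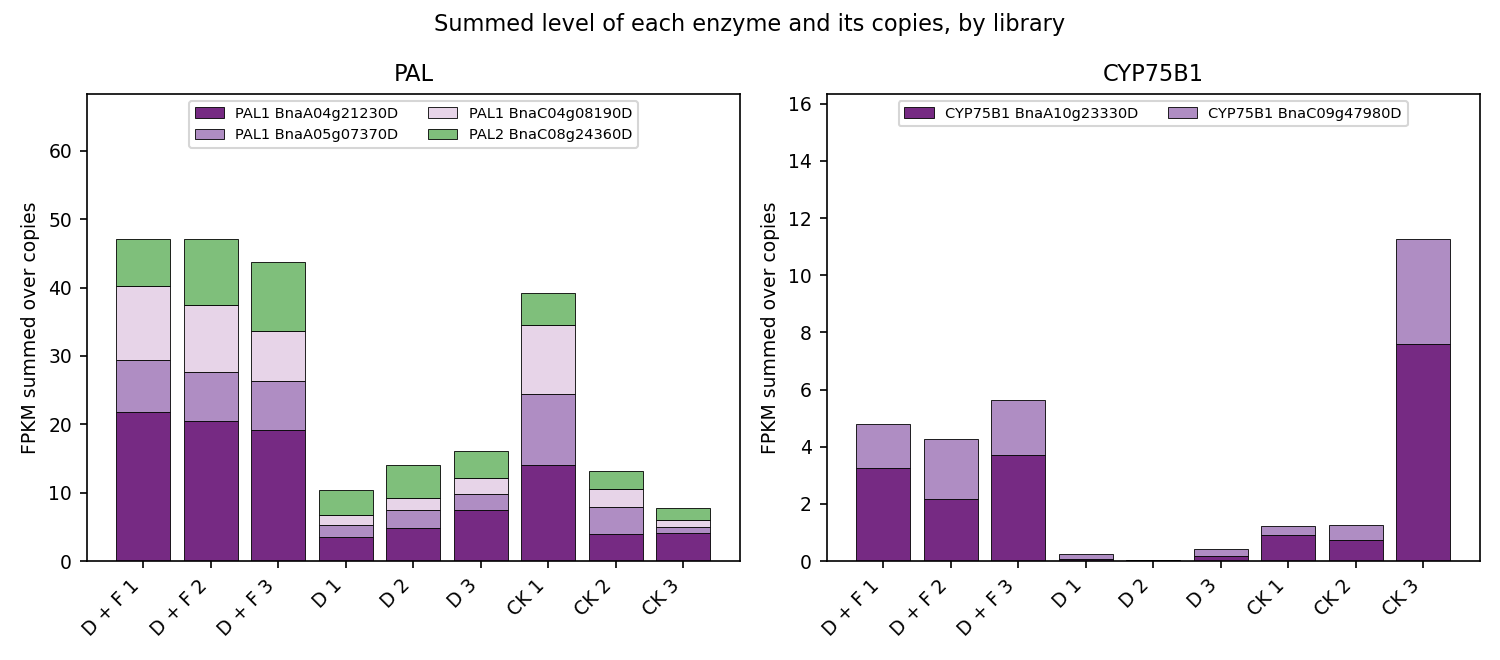
FPKM summed over the 4 *PAL* copies followed here (left) and the 2 *CYP75B1* copies (right) in each of the 9 libraries. Colours are the copies, and each bar is 1 library. The *PAL* sum is 43.7 to 47.2 FPKM in D + F and 10.4 to 16.2 FPKM in D, and CK 1 (39.2 FPKM) and CK 3 (11.3 FPKM) are the highest CK bars of *PAL* and of *CYP75B1*.

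The make-up of the *PAL* sum also differed between libraries. *PAL1* BnaA04g21230D gave 46.3, 43.6 and 43.9% of it in D + F, 34.2, 34.6 and 46.7% in D, and 35.9, 30.5 and 52.7% in CK. *PAL2* gave 14.4, 20.6 and 23.0% in D + F, 34.9, 34.5 and 24.5% in D, and 12, 19.8 and 22.3% in CK. *PAL2* thus held a larger share in each D library than in any other library, and no test was run on these shares.

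The *PAL1* copies BnaA05g07370D and BnaC04g08190D have the same coding length, 1143 bases, in the A and the C subgenome. Of the read pairs on both, the A copy held 41.5, 42.2 and 49.2% in D + F, 55.2, 58.3 and 50% in D, and 51.1, 58.8 and 40.8% in CK. With the read pairs of a group pooled, which covers counting error only and not the spread between libraries, this was 43.9% in D + F (exact 95% interval 41.3 to 46.6), 54.3% in D (48.7 to 59.8) and 52.2% in CK (48.6 to 55.7). The D + F shares lay below all D shares, and the CK shares overlapped both. The sources do not say how reads that match several copies were counted, so the split between copies is less certain than their sum.

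In D + F vs. D, 5 of the 6 genes were up-regulated, while of the 50626 genes tested 0.808% were called higher and 0.338% lower (1.15% in all). The study named these genes as raised by fullerol from these libraries, so the count is not independent evidence. The log2 fold change was 1.81 ± 0.23 (SE) for *PAL1* BnaA04g21230D (adjusted p = 0.0269), 1.38 ± 0.14 for BnaA05g07370D (adjusted p = 0.0187) and 1.85 ± 0.19 for BnaC04g08190D (adjusted p = 0.0187) by limma. For *CYP75B1* it was 1.86 ± 0.19 for BnaA10g23330D (adjusted p = 0.0187) and 1.34 ± 0.16 for BnaC09g47980D (adjusted p = 0.0235). Both *CYP75B1* copies had entered the test through D + F and CK 3, so these p-values partly rest on the filter. Without a filter limma called neither of them (adjusted p = 0.0654 and 0.0635), nor any other of the 6 genes. The call of BnaC09g47980D was lost with voom on the solved read pairs (adjusted p = 0.0605). Because 1 is added to each FPKM, the log2 values understate the change of the *CYP75B1* copies. *PAL2* differed by 0.93 ± 0.18 (adjusted p = 0.0702) and did not pass, although all 3 D + F libraries were above all 3 D libraries, as held for 19.8% of all genes tested.

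Over the whole table the median log2 difference in D + F vs. D was 0.14, and median-of-ratios scaling brought it to 0.01. On that scale the same 5 members were called, with log2 fold changes of 1.26 to 1.80, and *PAL2* was at 0.80. The calls did not survive the loss of some libraries: none of the 6 genes was called without D 1, without D 2 or without D + F 2, 1 was called without D + F 3, 4 without D 3 and all 6 without D + F 1. Over the whole table, 580 genes were called in D + F vs. D, and 0 to 576 when 1 library was left out. The unadjusted p of each member stayed under 0.05 in all 6 of these fits, as did that of 6254 to 11826 of the 50626 genes tested. The members were named from these same libraries, so this is not independent evidence. The log2 fold change of *PAL1* BnaA04g21230D, for example, lay between 1.60 and 2.05. With 1 spread estimated from all 9 libraries, the wide CK libraries included, none of the 6 was called (adjusted p of 0.0729 to 0.259).

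**Figure D3:**
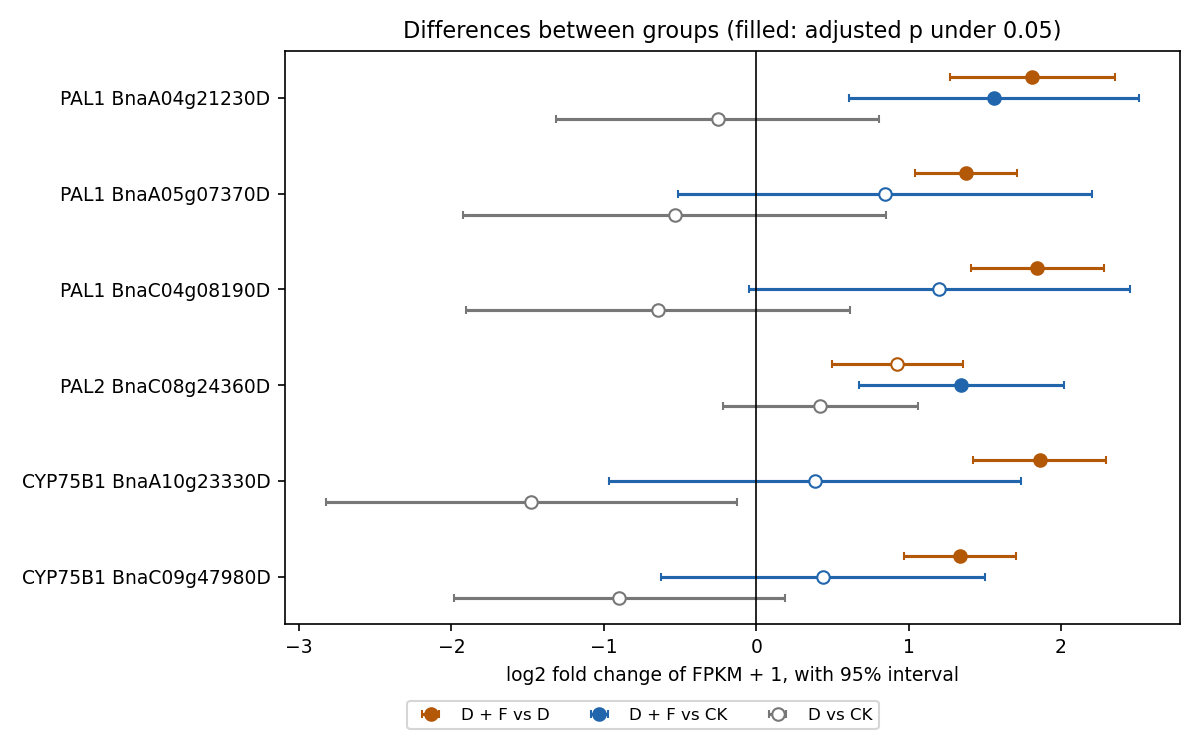
Log2 fold changes of FPKM + 1 (horizontal axis) with 95% intervals for the 6 genes in the 3 comparisons, D + F with D, D + F with CK and D with CK, from limma fits on 6 libraries each; filled points have an adjusted p under 0.05. The D + F vs. D points run from 0.93 to 1.86 with narrow intervals, and the intervals of the comparisons with CK are wider.

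The comparison with CK asks whether the level under fullerol returned to that of watered leaves or went beyond it. In D + F vs. CK, 2 of the 6 genes were up-regulated, while of all genes tested 8.90% were called higher and 8.16% lower (17.1% in all). *PAL1* BnaA04g21230D was higher by 1.56 ± 0.41 on the log2 scale (adjusted p = 0.0391) and *PAL2* by 1.35 ± 0.29 (adjusted p = 0.0207), and these were the genes whose D + F libraries all lay above all CK libraries, as held for 20.1% of all genes. For *PAL1* BnaC04g08190D the difference was 1.20, with a 95% interval of -0.05 to 2.45 (adjusted p = 0.164), and for BnaA05g07370D it was 0.84, with an interval of -0.52 to 2.2 (adjusted p = 0.349). For *CYP75B1* it was 0.39, with an interval of -0.97 to 1.74, for BnaA10g23330D (adjusted p = 0.678) and 0.44, with an interval of -0.63 to 1.50, for BnaC09g47980D (adjusted p = 0.538).

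For these 4 genes a level at, below or above CK could not be told apart with 3 CK libraries that differ this much. Without CK 1, the library high in *PAL*, 3 members were called, as were 6591 of the 50626 genes tested. *PAL1* BnaC04g08190D (1.85, adjusted p = 0.0114 by limma) had joined the other 2. Without CK 3, the library lowest in the *PAL* sum, the difference was 0.16 for *PAL1* BnaA05g07370D and 0.68 for BnaC04g08190D. In that fit, which also leaves out the library high in *CYP75B1*, *PAL2* and both *CYP75B1* copies were called, BnaA10g23330D at 1.13 (adjusted p = 0.0194) and BnaC09g47980D at 1.02 (adjusted p = 0.0173). Of all genes tested, 9591 were called there. Leaving out the CK library with the highest value of a gene raises D + F against CK by construction. The calls gained without CK 1 or CK 3 are therefore not independent evidence. No member was called without CK 2, without D + F 2 or without D + F 3, and only *PAL2* without D + F 1. With median-of-ratios scaling *PAL1* BnaA04g21230D missed the threshold (adjusted p = 0.0515).

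In D vs. CK none of the 6 genes was called, while 32.0% of all genes tested were, 12.3% higher and 19.7% lower. Of the members only *CYP75B1* BnaA10g23330D had an unadjusted p under 0.05, as did 22328 of the 50626 genes tested. Limma's voom on the solved read pairs called none of the 6 either. BnaA10g23330D differed by -1.48 ± 0.58 (adjusted p = 0.0894) and BnaC09g47980D by -0.90 ± 0.46 (adjusted p = 0.177), and for both all D libraries lay below all CK libraries, as held for 30.4% of all genes. With a pseudocount of 0.1 in place of 1 the difference of BnaA10g23330D was -3.30 and passed (adjusted p = 0.0306). The *PAL1* copies differed by -0.25, -0.54 and -0.65 and *PAL2* by 0.42, with adjusted p between 0.273 and 0.699.

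The *PAL1* values against CK moved with both CK 1 and CK 3. Without CK 1 the log2 differences between D and CK were 0.27 for BnaA04g21230D, 0.12 for BnaA05g07370D and 0.01 for BnaC04g08190D, and *PAL2* was called higher in D (0.71, adjusted p = 0.0441). Without CK 3, BnaA05g07370D (-1.22, adjusted p = 0.0426) and *CYP75B1* BnaA10g23330D (-0.73, adjusted p = 0.0256) were called lower in D. Of all genes tested, 14647 were called without CK 1 and 17377 without CK 3. The library left out held the highest or the lowest CK value of these members, so its loss moves the difference by construction.

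Among the watered plants the 4 *PAL* copies were highest in CK 1 and the 2 *CYP75B1* copies in CK 3. Across the 9 libraries, log2(FPKM + 1) of the *PAL* copies correlated with each other at r = 0.74 to 0.959 and the *CYP75B1* copies at r = 0.967, but a *PAL* copy and a *CYP75B1* copy only at r = 0.0271 to 0.394. These are descriptions over 9 libraries that share their groups, so they mix differences between groups with the spread within CK. Among all genes tested, the highest CK library was CK 1 for 29.5%, CK 2 for 16% and CK 3 for 54.5%. The 15 other genes of the flavonoid list described next were split, 8 being highest in CK 1, 7 in CK 3 and none in CK 2, a count made after the values were seen.

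Of the neighbouring steps, *CYP73A5* comes directly after *PAL*. Its copy BnaC03g16960D had 3.87, 5.14 and 3.62 FPKM in D + F, 0.779, 1.40 and 1.61 FPKM in D, and 3.79, 1.81 and 0.601 FPKM in CK. D + F lay above all D libraries, and CK 1 was the highest CK library, as it was for BnaA04g17570D but not for BnaA03g14010D, which was highest in CK 3. All 3 copies were up-regulated in D + F vs. D, by 1.37 ± 0.22 for BnaA03g14010D (adjusted p = 0.0439), 1.44 ± 0.16 for BnaA04g17570D (adjusted p = 0.0187) and 1.21 ± 0.20 for BnaC03g16960D (adjusted p = 0.0471), and none was called against CK in either drought group. The study listed these copies from the same libraries, so their count is not independent evidence.

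Arogenate dehydratase (ADT) makes phenylalanine, the substrate of *PAL*, and of its 6 listed copies 5 were tested, *ADT4* BnaA06g19810D falling under the filter at 0.450 FPKM in D + F, 0.210 in D and 1.92 in CK. None of the 5 was called in D + F vs. D, where 1.15% of all genes tested were. All D + F libraries lay above all D libraries for both *ADT5* copies, BnaA02g05780D (0.62) and BnaCnng34620D (0.51), as held for 19.8% of all genes. They lay below for *ADT2* BnaA09g56680D (-0.35), as held for 4.99%. The untested *ADT4* copy was also above all D libraries. In D vs. CK *ADT1* BnaA06g07360D (0.95) and both *ADT2* copies, BnaA05g29990D (0.62) and BnaA09g56680D (0.68), rose, while both *ADT5* copies, BnaA02g05780D (-0.87) and BnaCnng34620D (-1.46), fell. In D + F vs. CK only BnaCnng34620D was called, at -0.95.

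*HST* encodes shikimate O-hydroxycinnamoyltransferase, which leads toward lignin and chlorogenic acid. Its copies BnaA07g00390D and BnaC07g00330D averaged 56.4 and 57.2 FPKM in D + F, 50.2 and 60.6 FPKM in D, and 27.3 and 22.2 FPKM in CK. Both rose relative to CK, by 0.85 and 1.40 in D and by 1.03 and 1.33 in D + F, and neither was called in D + F vs. D (0.17 and -0.07). The third copy, BnaC01g22120D, fell in D vs. CK (-0.89) and was not called in the other comparisons. BnaA09g33560D, which shares the KEGG entry of *PAL2*, averaged 8.19 FPKM in D + F, 4.65 in D and 4.17 in CK. It was called in D + F vs. CK (0.84, adjusted p = 0.0222) and differed by 0.71 in D + F vs. D (adjusted p = 0.121), so that it passed and missed the threshold in the same comparisons as *PAL2*.

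Beyond these, the study assigned genes to 3 KEGG pathways in its own D + F vs. D comparison on these libraries, which fixes most of their direction. Of the 15 genes of flavonoid biosynthesis other than the members, 12 were up-regulated and none down-regulated in D + F vs. D. Of all genes tested, 0.808% were called higher and 0.338% lower. The 15 had a median log2 fold change of 1.34, where that of the whole table was 0.14. They ran from 1.04 for BnaA03g45610D (adjusted p = 0.0839) to 2.24 for BnaA09g15710D (adjusted p = 0.0317). None of the 15 was called in D + F vs. CK, where the median was 0.56 and 17.1% of all genes tested were called. In D vs. CK 4 were down-regulated, with a median of -0.87, and 19.7% of all genes tested were called lower.

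Of the 19 other genes of phenylpropanoid biosynthesis, 12 were up-regulated in D + F vs. D and none down-regulated, with a median of 1.21. For 6 of the 19 all D + F libraries lay below all D libraries and for 13 above, as held for 4.99% and 19.8% of all genes tested. The extremes were BnaC01g31890D at 2.35 (adjusted p = 0.0293) and BnaA02g18290D at -2.12 (adjusted p = 0.0604). BnaC01g31890D averaged 14.8 FPKM in D + F, 1.99 in D and 44.3 in CK, and it was also called lower in D + F vs. CK (-1.50, adjusted p = 0.0390). In D + F vs. CK 5 of the 19 were called higher and 1 lower, and in D vs. CK 6 higher and 5 lower. Of all genes tested, 8.90% were called higher and 8.16% lower in D + F vs. CK. In D vs. CK these shares were 12.3% and 19.7%.

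Of the 9 other genes of phenylalanine metabolism, 7 were up-regulated in D + F vs. D, with a median of 1.34, from -0.77 for *CORI3* BnaC01g15060D (adjusted p = 0.0822) to 2.27 for BnaA02g11200D (adjusted p = 0.0187). The lists share genes, the *CYP73A5* copies among them. Over the 31 different genes 19 were up-regulated in D + F vs. D, as were 0.808% of all genes tested.

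**Figure D4:**
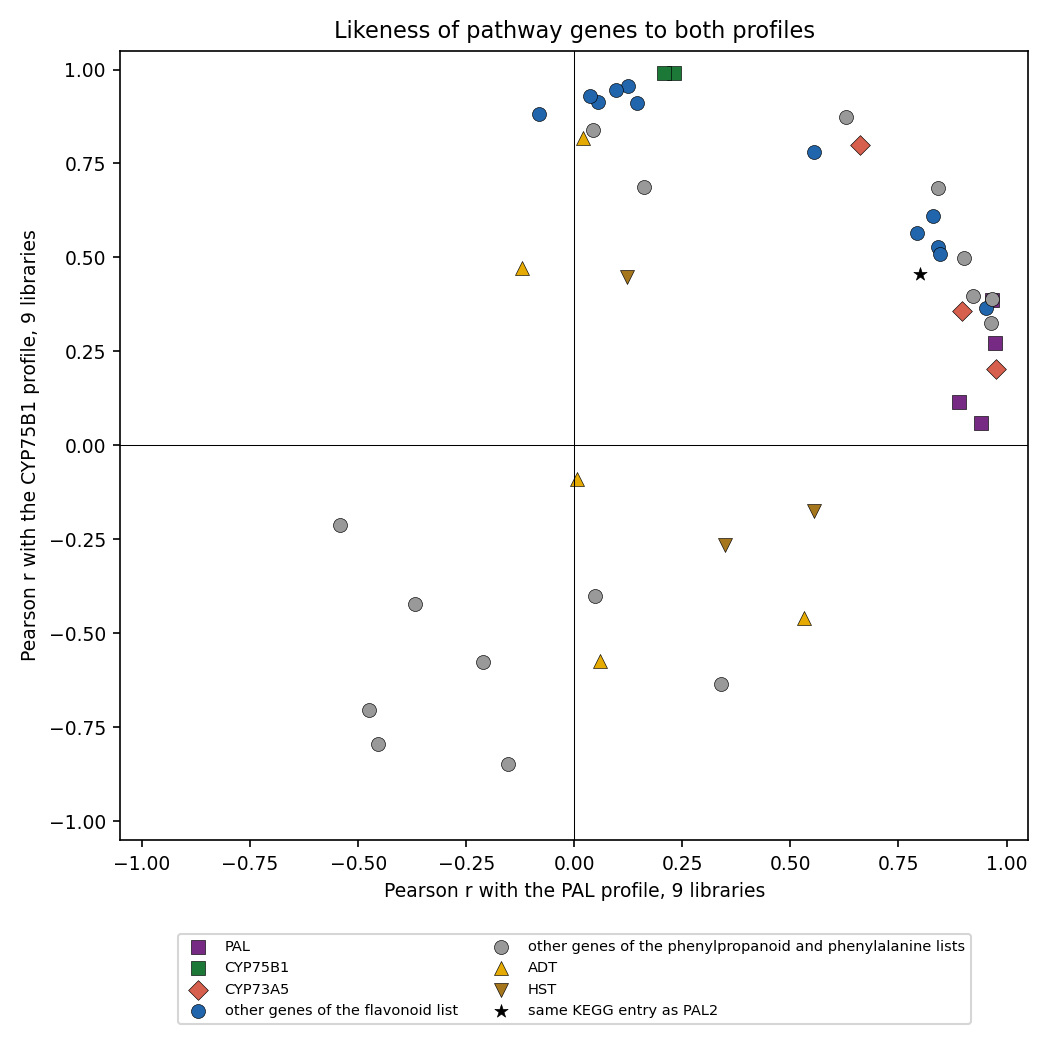
Pearson r of log2(FPKM + 1) over the 9 libraries between each listed gene and the mean *PAL* profile (horizontal axis) and the mean *CYP75B1* profile (vertical axis); each point is 1 gene, and symbols give its list. *CYP73A5* BnaC03g16960D lies at 0.976 and 0.202, near the *PAL* copies, and BnaA09g15710D of the flavonoid list at 0.125 and 0.955, near *CYP75B1*.

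The likeness of other genes to the members was measured as the Pearson r of log2(FPKM + 1) over the 9 libraries with the mean standardised profile of each enzyme. *CYP73A5* BnaC03g16960D ranked 1 among all genes tested for likeness to *PAL* (r = 0.976), its copy BnaA04g17570D ranked 106 (r = 0.897) and BnaA03g14010D 1952 (r = 0.66). Among genes outside the members with a mean of at least 5 FPKM, BnaA02g11200D (r = 0.967) and BnaC05g33370D (r = 0.964) were the most like *PAL*. BnaA02g11200D had 13.1, 14.8 and 10.5 FPKM in D + F, 1.35, 1.43 and 2.96 FPKM in D, and 6.69, 1.44 and 1.18 FPKM in CK. Like *PAL1* BnaA04g21230D, it was called in D + F vs. D and in D + F vs. CK (1.99, adjusted p = 0.0261 by limma). It was picked for its likeness over these same libraries and is in a KEGG list of D + F vs. D. These calls are therefore not independent evidence.

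For *CYP75B1* the most alike, again outside the members and with that mean, were BnaA08g07620D (r = 0.997) and BnaA09g39890D (r = 0.976). BnaA08g07620D had 12.1, 13.6 and 14.6 FPKM in D + F, 1.80, 0.891 and 1.70 FPKM in D, and 3.44, 3.31 and 34.2 FPKM in CK. As for *CYP75B1*, CK 3 was the highest library, the D + F libraries came next, and D was lowest. The likeness was chosen over all genes from these 9 libraries, so it is given without a test.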

How the data were processed

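The authors deposited FPKM, 1 file per library. Per the paper, reads of low quality or with adapter or poly-N sequence were discarded, TopHat placed the rest on the *B. napus* genome through a Bowtie index, and HTSeq counted them per gene. The submitters' processing notes name Bowtie 0.12.2 and a mouse build, which does not match the organism. Counting of multi-copy reads is not given in the sources used here.

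Read pairs, gene lengths and totals were solved from the digits of the FPKM for 76351 of 76352 genes above 0, with 99.998% of 589231 values whole within 0.01. Of the lengths of 53123 Bna genes above 0 in all libraries, 99.998% were multiples of 3, so the lengths of Bna genes are called coding lengths. Genes above 1 FPKM in at least 3 of 9 libraries were fitted with limma 3.58.1 (R 4.3.3, trend) on log2(FPKM + 1), 6 libraries per comparison. Python 3.11.15 was used for tables (pandas 2.3.3, numpy 2.4.6, scipy 1.17.1) and figures (matplotlib 3.10.9). Both steps were tested on simulated data. In the limma test only genes with a D mean above about 5 FPKM were given a change, a level that among the members only *PAL1* BnaA04g21230D reached.

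The members and lists were chosen with earlier results of these data known. Named genes are the members, the ADT, *CYP73A5* and *HST* copies, and the gene sharing *PAL2*'s KEGG entry. Also named are the extremes of each KEGG list in D + F vs. D. The last are the 2 genes outside the members most like each enzyme, with a mean of at least 5 FPKM. None of the 104592 identifiers matched the reference gene table (0 matches), so no sequence or coordinate is given. Per the paper the libraries are biological replicates; whether each held 1 plant or a pool is not given in the sources used here.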

Additional observations from a re-analysis of the deposited data

How the results depend on the processing

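Each result was recomputed with another pseudocount (0.1), without a filter, with a mean of at least 5 FPKM, with median-of-ratios scaling or quantile normalization, with all 9 libraries in 1 fit, with a replicate block (also together with median-of-ratios scaling), without limma's trend, with voom on solved read pairs, with a minimum of 2-fold, and without each library. In D + F vs. D (5 members, 580 genes called) no filter gave 0 members and 22 genes, and the mean of at least 5 FPKM gave 2 members, with 3 not tested, and 322 genes. The fit on all 9 libraries gave 0 members there. In D + F vs. CK (2 members, 8641 genes) no filter gave 0 members, median-of-ratios scaling 1, and a minimum of 2-fold 5048 genes. In D vs. CK (0 members, 16209 genes) the pseudocount of 0.1 gave 1 member and a minimum of 2-fold 8151 genes. Leaving out 1 library gave 0 to 6 members and 0 to 576 genes in D + F vs. D, 0 to 3 members and 3125 to 9591 genes in D + F vs. CK, and 0 to 2 members and 10006 to 17377 genes in D vs. CK. The sign changed without CK 1 in D vs. CK for *PAL1* BnaA04g21230D (-0.52 to 0.27 over the left-out libraries), BnaA05g07370D (-1.22 to 0.12) and BnaC04g08190D (-1.17 to 0.009), and without CK 2 in D + F vs. CK for *CYP75B1* BnaA10g23330D (-0.02 to 1.13). The cause was not tested.

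Libraries with the same number did not deviate together in every pair (r of -0.291 to 0.306), so the numbers were not taken to pair them. Between D + F and CK, however, all same-number pairs were positive (0.306, 0.0532 and 0.266), against -0.276 to 0.0425 for different numbers. A pairing of those groups was not tested further. With the replicate block, D + F vs. D gave 0 members and 1 gene, and with the block and median-of-ratios scaling 0 members and 5 genes. The block left 2 members called when D + F was set against CK, and 0 when D was. It raised the genes called to 11060 from 8641 in D + F vs. CK and lowered them to 11986 from 16209 in D vs. CK. Median-of-ratios scaling moved the share of calls that were higher to 48.8% in D vs. CK, from 38.5%, and to 56.0% in D + F vs. D, from 70.5%. It put the *PAL* sum in D + F at 43.9 FPKM, with D + F 3 (38.6 FPKM) below CK 1 (40.0 FPKM), and left the other sums within 1 SD. Under it BnaC05g19190D (r = 0.971) took the place of BnaA09g39890D beside *CYP75B1*, and BnaC03g16960D stayed at rank 1 for *PAL*. The *CYP75B1* levels in D rest on 11 and 20 read pairs in all, which limits their precision.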
